A study of Homo sapiens with 6 samples.

Results

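HMGCS1, IDI1, FDFT1, SQLE, FASN, SCD, SREBF2 and INSIG1 are 8 genes of cholesterol and fatty acid synthesis whose transcription is set by cellular sterols. They were chosen by name, and each was represented by its single RefSeq transcript in the files, out of 15739 transcripts and 15367 named genes. All 8 mRNAs were detected in all 6 libraries of the study. Their transcripts were followed here through the share of each library that they took, the reverse transcription (RT) stops at their guanines and the stops at their adenines and cytosines.

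Sterol regulation of these genes runs through the sterol regulatory element-binding proteins (SREBPs), membrane-bound transcription factors made in the endoplasmic reticulum. When sterols are low, the escort protein SCAP carries SREBP to the Golgi, where it is cut and released to the nucleus. When sterols are high, INSIG proteins hold SCAP and SREBP back. SREBF2 encodes SREBP-2, the form best known for cholesterol synthesis genes. INSIG1 encodes a retention protein and is itself a target of the pathway. Serum lipoproteins are a main source of cholesterol for cells in culture, and loss of serum is a classical way to alter this pathway.

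The study asked how RNA G-quadruplexes, four-stranded structures of stacked guanines, fold in U2OS cells, a human osteosarcoma line. cDNA ends from poly(A)+ RNA were sequenced, each end being 1 RT stop, with 1 library per condition and no replicate. Differences between conditions therefore have no replicate check, no p-value was calculated, and 95% intervals reflect counting error alone.

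For 2 libraries the RNA received no dimethyl sulfate (DMS) and was, by the labels, copied in buffer with 150 mM K+ or 150 mM Na+. The other 4 carried DMS, which methylates unpaired A and C and exposed G, and all 4 were reverse transcribed in 150 mM K+. For the in vitro pair, extracted RNA was refolded and modified in 150 mM K+ or 150 mM Li+. For the in-cell pair, living cells received 8% DMS for 5 min, either in growth medium with serum (unstressed) or starved, where a 2 h incubation in Hank's salt solution preceded the DMS. That solution lacks serum, amino acids and vitamins together, so loss of serum cannot be told apart from loss of the other nutrients. The labels and the file names of the libraries without DMS contradict each other on which is K+, and these libraries are called here by their labels. K+ is the ion that holds G-quadruplexes together best, and Na+ and Li+ do so less well or hardly.

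Listed stops ran from 12999691 in the unstressed library to 35371061 in the library labelled K+. The level of an mRNA is given as its RT stops per 1000000 stops of the library (SPM). It is a relative measure over a population, and fewer cells with an mRNA and less mRNA per cell cannot be told apart. Of the mesenchymal markers, VIM took 1861.0 to 2443.5 SPM in the 6 libraries and CD44 139.5 to 195.9. COL1A1 took 531.1 SPM in unstressed and 137.9 in starved cells, SPARC 763.9 and 218.8, and RUNX2 23.8 and 35.8. The epithelial marker EPCAM lay between 6.75 and 9.31 SPM, CDH1 and PTPRC had 17 and 9 listed stops over all libraries, and ALB had none.

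The libraries without DMS and those made in vitro gave nearly the same level for each of the 8 mRNAs. Between the libraries labelled K+ and Na+, their log2 ratios lay between -0.06 and 0.04, and between in vitro K+ and Li+ from -0.14 to 0.07. Starved over unstressed ratios ran from -2.66 to 0.81 on the same scale. Of 9528 transcripts with at least 200 stops over the in-cell pair, 16.6% were at least 1.5-fold higher and 44.7% at least 1.5-fold lower in starved cells, with a median log2 ratio of -0.41. Against this background, 1 of the 8 mRNAs was higher (IDI1), 4 were lower (FASN, SREBF2, SCD and SQLE) and their median log2 ratio was -0.59. The mRNAs thus lay on both sides of the unstressed level, and the share of lower ones was close to that over all transcripts. With ratios centred on the median of all transcripts, 2 were higher (IDI1 and HMGCS1) and 3 lower (FASN, SREBF2 and SCD), beside 30.7% and 32.7% of all transcripts.

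SREBF2, on the plus strand of chromosome 22 (chr22:42229109-42303309 in GRCh37), took 131.0 (labelled K+) and 132.1 (labelled Na+) SPM without DMS. It took 145.7 (K+) and 138.3 (Li+) in vitro, 117.8 in unstressed cells and 38.1 in starved cells. The starved library stood apart from the other 5, and the level was 3.09-fold lower than in unstressed cells (interval 2.90 to 3.30), a log2 ratio of -1.63. From listed stops alone, without those rebuilt for nucleotides with fewer than 3, the log2 ratio was -2.67.

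INSIG1 (chr7:155089588-155101945, plus strand) was the least abundant of the 8 per length in every library but that of starved cells. Its level without DMS was 38.4 (labelled K+) and 38.9 (labelled Na+) SPM, 36.5 (K+) and 40.3 (Li+) in vitro, 32.0 in unstressed cells and 33.1 in starved cells. On this scale the starved over unstressed ratio was 1.03 (0.943 to 1.14). Most of its stops lay on nucleotides with fewer than 3 and were rebuilt from the deposited means, and 1 of the 4 bases had to be estimated in the unstressed library. From listed stops alone, 85 in unstressed and 523 in starved cells, the log2 ratio was 1.74, so the level of INSIG1 depends on this step, which the counting interval does not cover.

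Of the cholesterol enzymes, HMGCS1 (chr5:43289497-43313614, minus strand), which makes HMG-CoA at the head of the pathway, was slightly higher in starved cells. Its level without DMS was 226.2 (labelled K+) and 227.3 (labelled Na+) SPM, 227.6 (K+) and 232.7 (Li+) in vitro, 155.3 in unstressed cells and 187.5 in starved cells. The ratio of the in-cell pair was 1.21 (1.16 to 1.26), and both in-cell libraries lay under the other 4.

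IDI1 (chr10:1085359-1095059, minus strand), the isomerase that makes dimethylallyl diphosphate, was the only one of the 8 past 1.5-fold upward. It took 60.5 (labelled K+) and 58.8 (labelled Na+) SPM without DMS, then 58.1 (K+) and 59.8 (Li+) in vitro, 38.4 in unstressed cells and 67.5 in starved cells. The ratio was 1.76 (1.63 to 1.9), or 0.81 on the log2 scale, and from listed stops alone the log2 ratio was 1.82. The unstressed library, not the starved one, was the one that stood apart for IDI1, and 1 of its 4 bases was estimated there.

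FDFT1 and SQLE, both on chromosome 8, encode squalene synthase and squalene epoxidase, the successive enzymes that commit the pathway to sterols. FDFT1 took 126.8 (labelled K+) and 123.2 (labelled Na+) SPM without DMS, then 129.6 (K+) and 131.0 (Li+) in vitro, 136.1 in unstressed and 99.3 in starved cells, a 1.37-fold lower level (1.31 to 1.44). SQLE took 149.2 (labelled K+) and 148.3 (labelled Na+) without DMS, 153.8 (K+) and 146.9 (Li+) in vitro, 113.9 in unstressed and 69.3 in starved cells, 1.64-fold lower (1.56 to 1.74). For both, starved cells gave the lowest of the 6 values.

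The fatty acid enzymes were both lower in starved cells. FASN (chr17:80036214-80056112, minus strand), the synthase that builds palmitate, took 423.4 (labelled K+) and 442.4 (labelled Na+) SPM without DMS, then 470.0 (K+) and 477.4 (Li+) in vitro, 359.9 in unstressed cells and 57.0 in starved cells. The 6.32-fold lower level (6.02 to 6.62) was the largest difference of the 8, and only 0.997% of all transcripts had a lower ratio. From listed stops alone its log2 ratio was -3.61, against -2.66 with the rebuilt stops. SCD (chr10:102106990-102124583, plus strand), the desaturase that turns saturated into monounsaturated fatty acids, was the most abundant of the 8 per length in all 6 libraries. It took 877.1 (labelled K+) and 901.0 (labelled Na+) without DMS, 919.2 (K+) and 902.8 (Li+) in vitro, 708.9 in unstressed cells and 303.7 in starved cells, 2.33-fold lower (2.28 to 2.39).

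**Figure D1:**
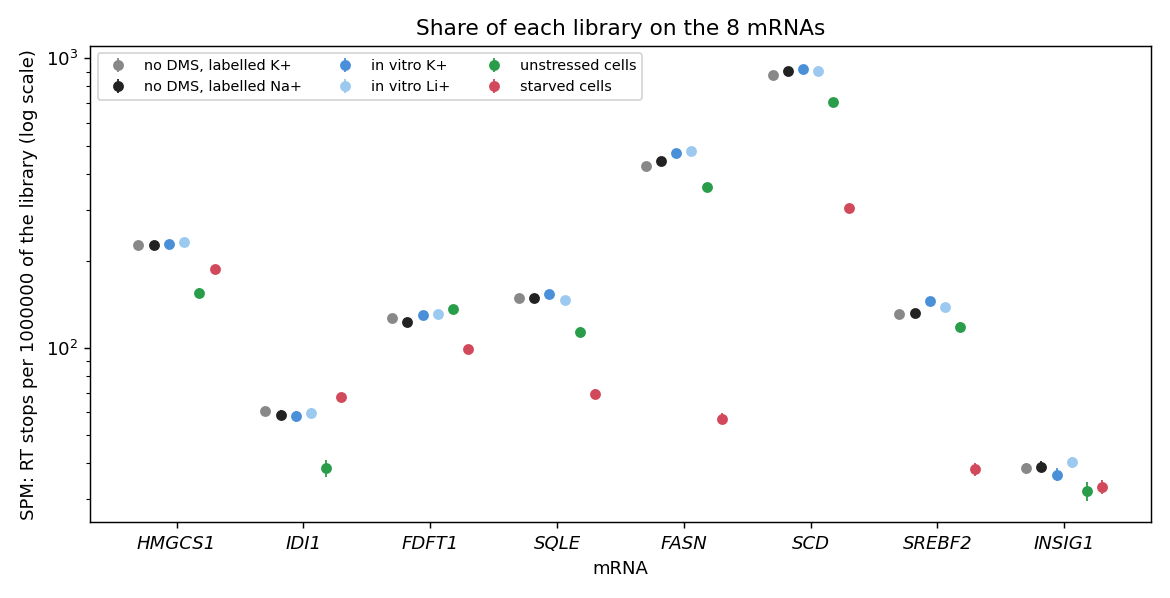
RT stops per 1000000 stops of the library (SPM, on a log scale) for the 8 mRNAs, with 1 point per library and bars for the 95% counting interval. The libraries without DMS and in vitro lie close together for every mRNA, while starved cells are far lower for FASN (57.0 against 359.9 in unstressed cells), SCD and SREBF2 and higher for IDI1 (67.5 against 38.4).

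Per kilobase up to the last position with a listed stop, the order of the levels in unstressed cells was SCD with 130.3 SPM per kb, FDFT1 with 66.0, HMGCS1 with 45.1, FASN with 42.6, SQLE with 38.5, SREBF2 with 27.5, IDI1 with 18.1 and INSIG1 with 10.7. The place of HMGCS1 is uncertain, because the files point to a longer transcript than the one used for this length. Per nucleotide of the deposited transcript, its 0.690 stops in unstressed cells lay below FASN (0.920) and SQLE (0.831). In starved cells FASN moved from the fourth place to the last, at 6.75, below SREBF2 at 8.89 and INSIG1 at 11.1. SQLE and FASN did not differ beyond counting error in the library labelled K+ (50.4 and 50.1).

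The in-cell differences followed base composition across the transcriptome. Over the 9528 transcripts, the GC content of the mRNA and the log2 starved over unstressed ratio had a Spearman correlation of -0.80. The points share the same pair of libraries, so this is a description. Of the 8 mRNAs, the ones with most GC were FASN (65.3%) and SREBF2 (58%), and the ones with least were IDI1 (37.9%) and HMGCS1 (40.1%). The median log2 ratio of transcripts with 40 to 45% GC was 0.18, that of transcripts with 55 to 60% was -1.40 and that above 60% was -1.72. The Spearman correlation of GC with the level relative to the library labelled K+ was 0.75 in unstressed and -0.46 in starved cells, so both in-cell libraries departed from the RNA without DMS, in opposite directions. Between the libraries without DMS it was -0.57, over a range of log2 ratios from -0.20 to 0.12 (5th to 95th percentile), and in vitro it was 0.09. What part of the differences on the 8 mRNAs goes with GC content was not tested.

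Beside transcripts in their own GC range, the ratios of 6 of the 8 mRNAs lay within 0.33 of the range's median on the log2 scale. These were HMGCS1 (0.09 above), IDI1 (0.22 above), FDFT1 (-0.07), INSIG1 (-0.13), SREBF2 (-0.23) and SQLE (-0.33). FASN and SCD lay farther off. FASN was at -2.66 where the median of 1306 transcripts above 60% GC was -1.72, and 4.82% of these were lower. SCD was at -1.22 where the median of 1624 transcripts with 45 to 50% GC was -0.38, and 8.74% of these were lower.

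Listed stops in the in-cell libraries also crowded toward the 3′ end of the mRNAs. Over 2955 transcripts of at least 2000 nt with at least 200 listed stops in every library, the last 1000 nt held a median of 33.9% of the listed stops in both libraries without DMS and 71.9% in both in-cell libraries. The 8 mRNAs showed the same skew. FASN held 21.1% of its listed stops there in the library labelled K+, 70.4% in unstressed and 90.9% in starved cells. SCD held 17.0%, 34.5% and 49.9%, and SREBF2 held 29.4%, 84.8% and 86.5%. The skew was thus larger in starved than in unstressed cells for FASN, SCD and SREBF2, and also for SQLE (86.3% in unstressed and 94.4% in starved cells) and INSIG1 (82.4% and 89.1%). It was smaller for HMGCS1 (50.8% and 44.5%), IDI1 (86.5% and 74.5%) and FDFT1 (68.9% and 65.8%). Of the 2955 transcripts, 55.9% had a larger value in starved cells. Only listed stops enter these shares, and the part of the stops that is listed differs between libraries. On FASN, 18484 of 22931 rebuilt stops were listed in the library labelled K+, 5233 of 7779 in unstressed and 791 of 2203 in starved cells. What part of the skew goes with the limit for listing was not tested.

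**Figure D2:**
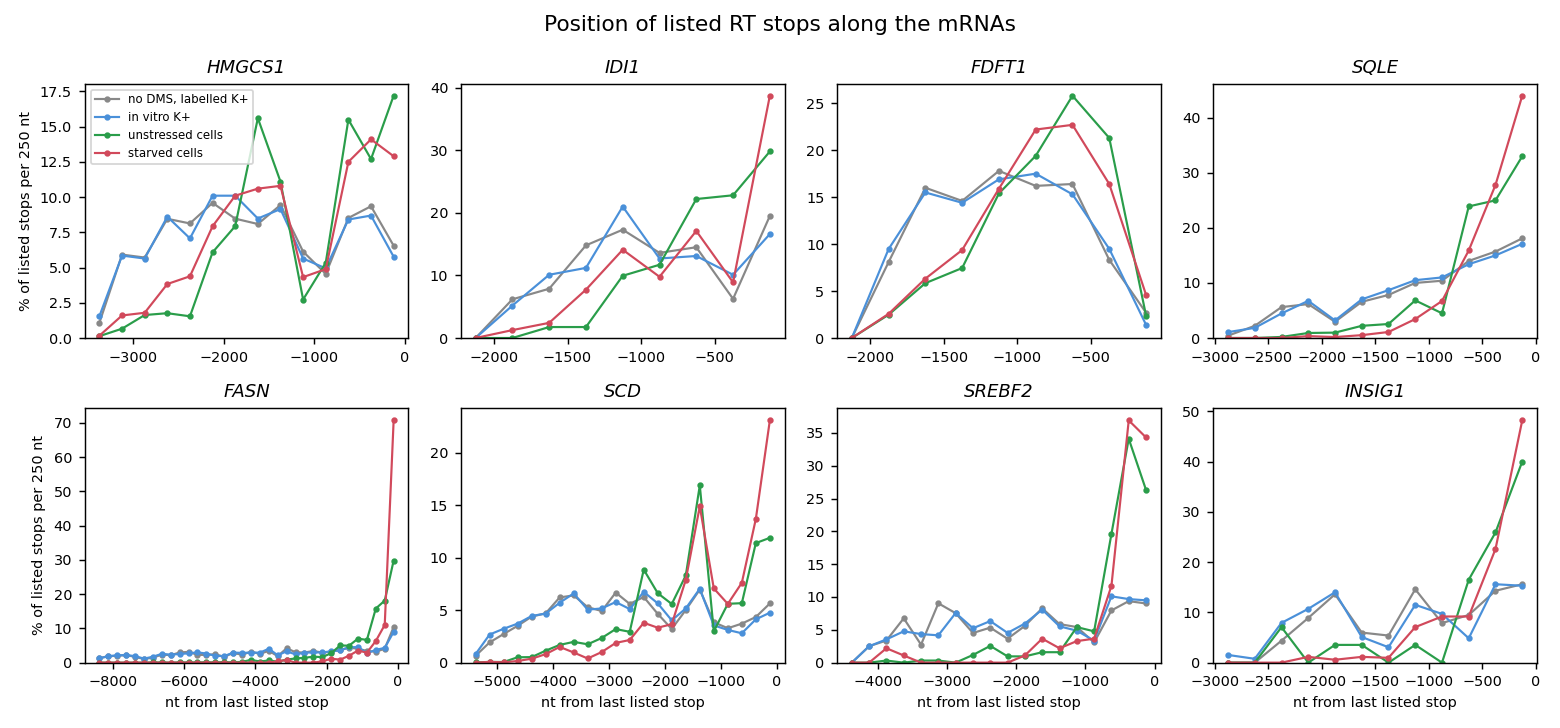
Percent of the listed RT stops of each mRNA in windows of 250 nt, by distance in nt from the last position with a listed stop, for 4 libraries. The last 1000 nt hold more of the stops in the in-cell libraries than without DMS or in vitro on each mRNA, as on FASN in starved cells, with 90.9%. The distribution is uneven in the other libraries too, as on SQLE, where the last 250 nt hold 18.1% in the library labelled K+.

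The levels were therefore also taken from the last 500 nt alone, as a share of the stops in the last 500 nt of all transcripts. Only listed stops enter this window, so its values differ from those above in the stops counted as well as in the stretch. Of 6758 transcripts with at least 100 such stops over the in-cell pair, 31.0% were at least 1.5-fold higher and 42.5% at least 1.5-fold lower in starved cells. FASN kept its difference, with 2510 listed stops in unstressed and 646 in starved cells, 7.08-fold lower (6.49 to 7.73). SREBF2 had 570 and 195, 5.33-fold lower (4.52 to 6.30). SCD had 3087 and 3535 in this window of the deeper starved library, which came to a 1.59-fold lower share (1.52 to 1.67), less than over the whole transcript.

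IDI1 and INSIG1 were higher by listed stops in the last 500 nt, with 90 and 530 stops for IDI1 (3.23-fold, 2.58 to 4.09) and 56 and 370 for INSIG1 (3.63-fold, 2.73 to 4.89). Over the whole transcript, 171 of 829 rebuilt stops on IDI1 were listed in unstressed and 1114 of 2608 in starved cells. For INSIG1 these were 85 of 692 and 523 of 1281. The listed part was thus smaller in the shallower unstressed library, which the counting intervals do not cover. HMGCS1 was 1.34-fold higher (1.23 to 1.47), FDFT1 1.51-fold lower (1.34 to 1.7) and SQLE 1.30-fold lower (1.19 to 1.42). In this window INSIG1 lay 1.27 above its GC range's median log2 ratio and IDI1 0.56 above. The differences from the range's median were -0.62 for SREBF2, -0.52 for SCD, -0.48 for FASN, -0.45 for FDFT1, -0.23 for SQLE and -0.16 for HMGCS1. FASN, at -2.82 against a median of -2.35, lay less far out than over the whole transcript, since 35.1% of the transcripts in its GC range and 8.35% of all transcripts were lower, and for SCD 29.6% of its range were lower. FASN, SCD and SREBF2 were thus lower and HMGCS1 and IDI1 higher by both measures. For INSIG1 and IDI1 the log2 ratios in the window were 1.86 and 1.69. Listed stops over the whole transcript gave close values, 1.74 and 1.82. The distance of these ratios from the values with rebuilt stops, 0.05 and 0.81, thus went with counting listed stops alone, not with the window.

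**Figure D3:**
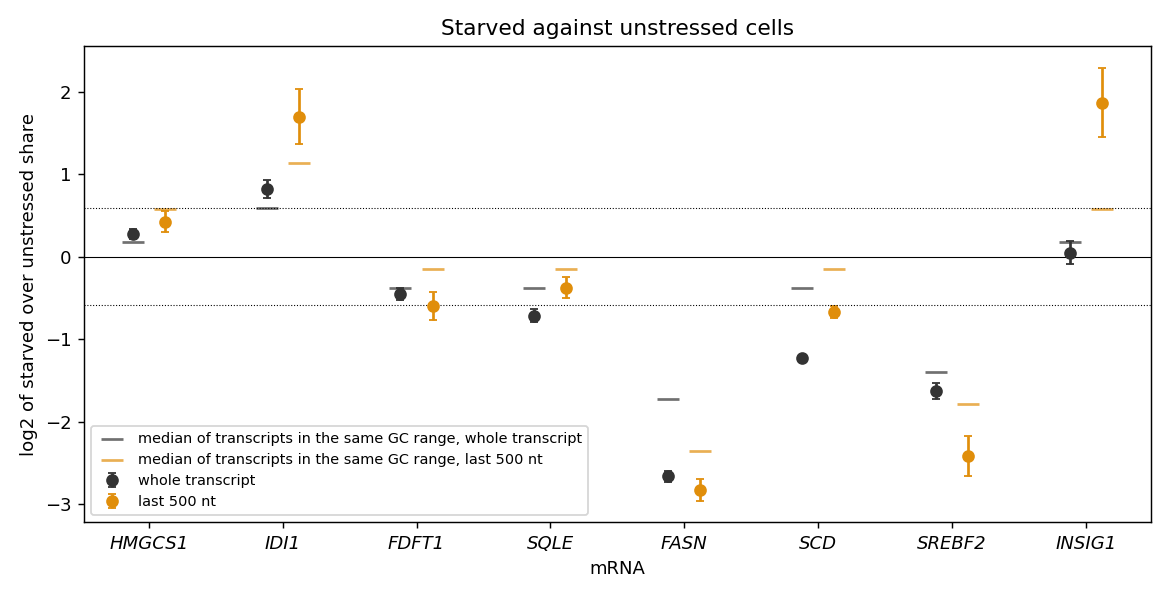
Log2 of the starved over the unstressed share for the 8 mRNAs, from the whole transcript with rebuilt stops and from the listed stops of the last 500 nt, with 95% counting intervals as bars. Dashes mark the median of all transcripts in the same GC range and dotted lines mark 1.5-fold. FASN (-2.66 and -2.82) lies lowest by both measures, and INSIG1 is at 0.05 and 1.86, where listed stops of the whole transcript gave 1.74.

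Other genes of the pathway were looked up in lists of cholesterol synthesis, fatty acid synthesis, sterol sensing and uptake, and targets of the oxysterol receptor LXR. Beside the 16.6% of all transcripts that were at least 1.5-fold higher in starved cells, the 44.7% that were lower and the median log2 ratio of -0.41, 1 of 15 cholesterol synthesis genes tested was higher and 8 were lower, with a median of -0.90. Of 11 fatty acid synthesis genes, none was higher and 4 were lower (median -0.38), and of 10 genes of sterol sensing and uptake, none was higher and 4 were lower (median -0.28). Of the LXR targets, 2 could be tested and neither passed 1.5-fold. The share of lower genes in the fatty acid and the sensing and uptake lists was thus no larger than that over all transcripts. In the last 500 nt, where 31.0% of all transcripts were higher and 42.5% lower, 2 of 11 cholesterol synthesis genes were higher and 7 lower, and 3 of 6 genes were lower in both the fatty acid and the sensing and uptake lists, with none higher.

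The lowest 3 of these genes were SCAP, the escort of SREBP, from 105.9 to 19.4 SPM (log2 -2.45), the desaturase FADS2, from 192.1 to 36.3 (-2.40), and DHCR7, which makes cholesterol in a last step of the pathway, from 112.7 to 22.0 (-2.36). At the other end were SC5D, a late sterol desaturase, from 35.9 to 66.9 (0.90), and ACAT2, which makes acetoacetyl-CoA, from 63.3 to 85.0 (0.42). The GC content was 61.7%, 59.0% and 58.1% in the lowest 3, 36.9% in SC5D and 45.5% in ACAT2. These genes were picked as extremes of the ratio, and the lists hold exceptions, such as TM7SF2 with 62.4% GC and a log2 ratio of -0.23.

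Outside these lists, the genes whose levels over the 6 libraries were most like the median of the 8 mRNAs were PRKAR1A, PRNP, KPNA2, DCBLD2 and HADHA. Their Euclidean distances on centred log2 levels were 0.08, 0.09, 0.09, 0.11 and 0.12, where the median over 1356 genes was 1.00. These 1356 genes had at least 1 stop per nucleotide in all 6 libraries, which of the 8 mRNAs only SCD and FDFT1 reached. The median profile also stands for mRNAs whose starved over unstressed log2 ratios ran from -2.66 to 0.81. In the RefSeq promoter table (GRCh38.p14, 250 bases before to 50 after the start), HMGCS1, INSIG1, IDI1, SCD and SREBF2 had an entry. The letters CCAAT, on either strand, were found in promoters of all 5 and in 34.6% of all 35116 promoters. The sterol element core CACCCCAC was found, on either strand, in that of SREBF2 alone and in 2.79% of all promoters.

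RT stops at guanines report on G-quadruplexes, because the enzyme halts at the 3′ edge of a folded one. The RT-stop enrichment score (E) is the stop count of a nucleotide over the mean of its transcript, and an E of 10 or more makes a stop strong, provided that the transcript averages 1 stop per nucleotide or more. In the libraries without DMS this minimum was passed by 7 of the 8 mRNAs, all but INSIG1 (0.715 and 0.692 stops per nucleotide). Strong stops at G on them numbered 1 in the K+ library and 12 in the Na+ library, as labelled. The contrast in number depends on this limit: at an E of 5 or more there were 71 and 72. Of the 12, 8 were on HMGCS1, 3 on SCD and 1 on FASN, and none was on IDI1, FDFT1, SQLE or SREBF2.

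By the labels, no strong stop at G on these mRNAs had an E in K+ of 2-fold that in Na+ or more, and 4.90% of 3613 transcripts had such a stop. This count depends on the limit too, and was 32 among stops with an E of 5 or more, against 40 with the opposite assignment. With the opposite assignment, as the file names have it, all 12 strong stops passed this 2-fold limit, and 37.9% of the 3613 transcripts had at least 1. With 3 of 7 mRNAs, the share among the sterol genes was close to that background.

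The 12 stops of the library labelled Na+ lay in guanine runs, some of them inside a run rather than at its end, as on HMGCS1 at positions 1778, 1779 and 1780. The 30 nt up to and including the stop are shown for the stops that define these sites, in mRNA sense from 5′ to 3′, because the runs can be read in them. Runs of at least 2 G are in capitals and the last base is the stop.

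HMGCS1 position 1787: GGtGGGGtGGGcatGGGGtGGGGGtatGGG

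HMGCS1 position 1815: GGaacagttGGaGGaatGGGatatctGGGG

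SCD position 4359: aatgtatgtgtGGctgtGGGtgtGGGtGGG

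SCD position 2636: aaGGGaaGGatttaaGGaGGtgaagtcGGG

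FASN position 1637: tGGGatGGGcacacagtGGcgcGGGatGGG

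The HMGCS1 sites lie in the 3′ UTR, in the last of its 10 exons, at chr5:43291176-43291205 and chr5:43291148-43291177 on the minus strand of GRCh37, and positions count from the start of the deposited transcript. The SCD sites lie in the 3′ UTR, in the last of 6 exons, at chr10:102123450-102123479 and chr10:102121727-102121756 on the plus strand. The FASN window crosses a splice junction in the coding sequence, with the stop in exon 10 of 43. All sequences are from GENCODE release 44 on GRCh37.

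The HMGCS1 sites form a single G-rich stretch just after the stop codon. All 8 of its strong stops lay within 42 nt, between positions 1774 and 1815, with the largest at 1787 (183 stops, E of 75.7) and 1779 (160 stops, E of 66.2) in the library labelled Na+. In the library labelled K+ these nucleotides had 4 and 14 stops. Summed over the 8 nucleotides, 613 stops in the library labelled Na+ made up 5.21% of all stops on the mRNA, against 48 stops and 0.392% in the library labelled K+. The 8 nucleotides were picked by their E in the library labelled Na+, so the contrast between these libraries is a description and no interval is given for it.

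In the DMS libraries the same 8 nucleotides had 63 stops in vitro in K+ (0.786% of the mRNA), 49 in vitro in Li+ (0.443%), none listed in unstressed cells and 48 in starved cells (0.662%). The in vitro pair differed 1.78-fold (1.2 to 2.63). The unstressed value is limited by depth: nucleotides with fewer than 3 stops are not listed, so up to 16 stops, or 0.477% of the mRNA, could have been present. The share of all stops on HMGCS1 that fell at G was also higher in starved cells, 15.2% against 9.65%, so a difference at this stretch between the in-cell libraries cannot be read from these counts.

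The SCD stop at position 4359 was the strongest stop at G on the 8 mRNAs. It had 1487 stops in the library labelled Na+ (E of 170.8, or 3.19% of all stops on the mRNA) and 15 in the library labelled K+ (E of 1.69). It was picked by the former value, and the contrast is given as a description. Of the 4442 strong stops at G on all transcripts that were at least 2-fold stronger in the library labelled Na+, 97.3% had a lower E.

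In the DMS libraries this nucleotide had 62 stops in vitro in K+ (E of 10.3), 60 in vitro in Li+ (E of 7.49), 5 in unstressed cells (E of 1.75) and 23 in starved cells (E of 10.5). In vitro, the interval of the ratio of its shares included 1 (1.37, 0.945 to 1.99). In starved over unstressed cells the ratio was 6.00 (2.23 to 20.2). Set against the listed stops within 100 nt on either side, which removes the 3′ skew, it was 6.02 (2.24 to 20.3), with 23 per 266 nearby stops in starved and 5 per 348 in unstressed cells. Over the whole mRNA, stops at G took 18.8% in starved and 11.5% in unstressed cells. Neither ratio of the in-cell pair allows for this difference, and both rest on 5 stops in unstressed cells.

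**Figure D4:**
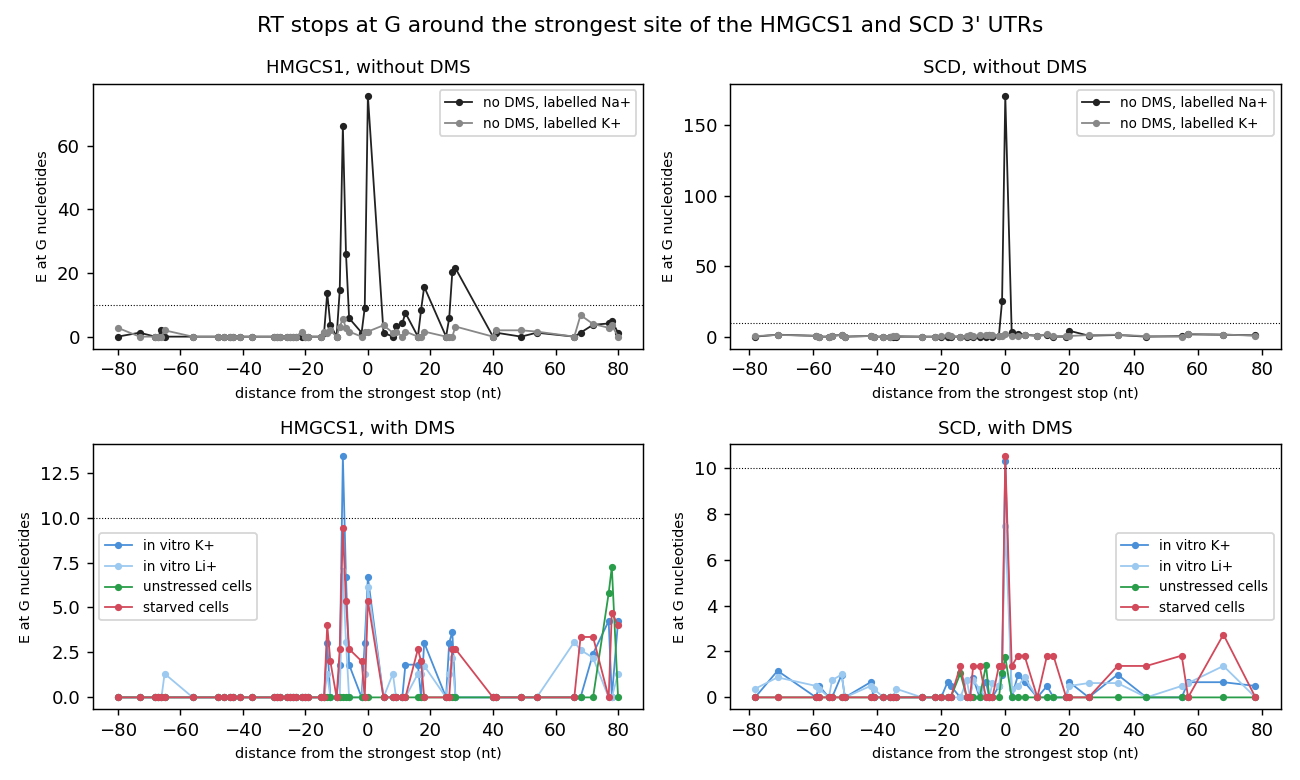
E at G nucleotides within 80 nt of the strongest stop of the HMGCS1 and SCD 3′ UTRs, for the libraries without DMS (top) and with DMS (bottom), with a dotted line at 10. The library labelled Na+ reaches 75.7 on HMGCS1 and 170.8 on SCD where the library labelled K+ stays near the baseline, and the starved library (10.5) lies above the unstressed one (1.75) at the SCD stop.

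The other strong stops were smaller. SCD position 2636 had 119 stops in the library labelled Na+ and 19 in the one labelled K+, and no more than 4 in any DMS library. FASN position 1637 had 28 and 5 stops and none listed in any DMS library, and no stop was listed within 100 nt of it in either in-cell library, so the in-cell data do not reach it. HMGCS1 position 2060 was strong in the library labelled K+ alone, with 31 stops (E of 12.3) against 24 (E of 9.93) in the one labelled Na+. The strongest stop at G on the mRNAs without a strong stop had an E of 9.90 on IDI1, 9.20 on SREBF2, 8.39 on INSIG1, 6.96 on SQLE and 6.22 on FDFT1, each from 6 to 21 stops.

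The number of sequence motifs did not follow the number of strong stops. A motif of 4 runs, each of 3 or more G and joined by loops no longer than 7 nt, was found once each in HMGCS1 and SREBF2 and in none of the others. With the run shortened to 2 G and the loop widened to 9 nt, FASN had 62 non-overlapping matches, SREBF2 20, SCD 14, HMGCS1 9, SQLE 8, FDFT1 7, INSIG1 6 and IDI1 4. FASN, with most matches, had a single strong stop.

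DMS blocks RT at A and C, and the share of stops at these bases was compared between libraries. It is a relative share that also falls when stops at G and U rise. The extent of modification was not tested. Without DMS, A and C took 48.8 to 51.8% of the stops on the 8 mRNAs, near their share of the sequence. In vitro the share was 72.4 to 79.5% in K+ and 72.9 to 79.2% in Li+. In cells it was 78.9 to 85.5% when unstressed and 67.3 to 77.2% when starved.

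Every one of the 8 mRNAs had a lower share of A and C together in starved than in unstressed cells, as did 99.5% of all 9528 transcripts. Most of the difference was at C, whose share was lower on each of the 8, as on FASN (37.4% in unstressed and 24% in starved cells), SREBF2 (36% and 24.4%) and SCD (23.8% and 15.7%). At A the shares lay closer together, lower in starved cells on HMGCS1 (68.2% and 64.8%), IDI1 (68.6% and 65.2%), SCD (59.2% and 57.3%) and FDFT1 (58.3% and 56.7%), nearly level on SQLE (62.4% and 62.3%) and SREBF2 (43.2% and 42.9%), and higher on INSIG1 (61.8% and 63.4%) and FASN (41.5% and 43.9%). The difference in the summed share was -6.9 percentage points for INSIG1, the smallest, -8.1 for IDI1, -8.4 for SQLE, -8.5 for HMGCS1, -10.1 for SCD, -10.6 for FDFT1, -11.0 for FASN and -11.9 for SREBF2, the largest. The median of the 8 was -9.3 points and that of all transcripts -9.2. For 7 of the 8, the starved and unstressed intervals were well apart, as for SCD with 83.0% (82.4 to 83.6) and 73.0% (72.1 to 73.8), and for INSIG1 they were 79.5 to 85.3% and 73.0 to 77.8%.

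**Figure D5:**
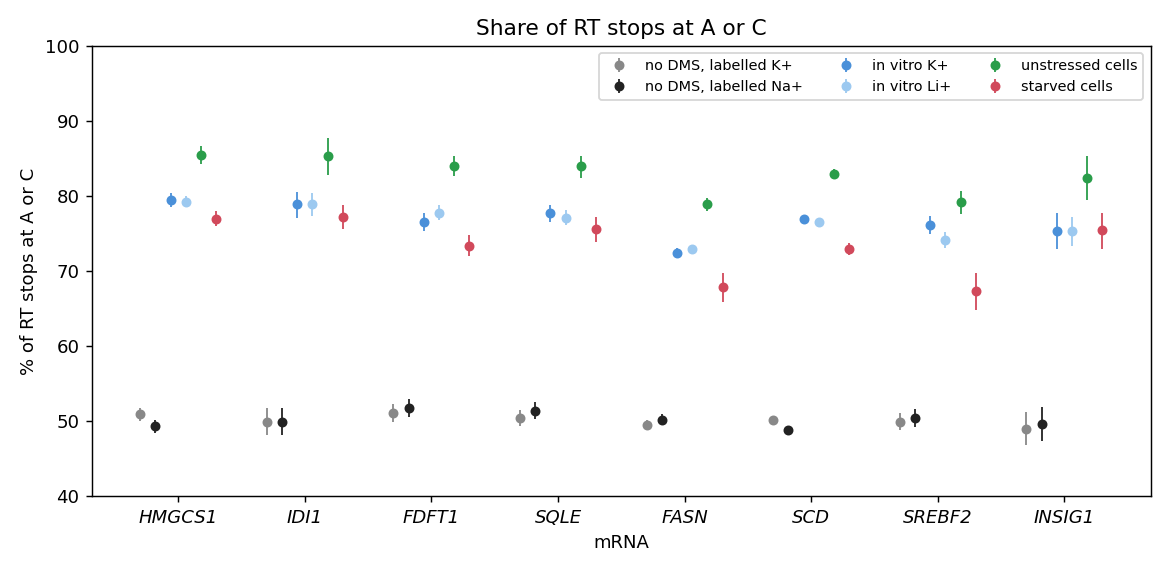
Percent of RT stops at A or C on the 8 mRNAs in the 6 libraries, with 95% binomial intervals that count rebuilt stops as observed. The libraries without DMS lie near 50.1%, and unstressed cells lie above starved cells on each mRNA, with SREBF2 showing the largest difference of -11.9 points.

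Among single A and C nucleotides, the one with the highest E in unstressed cells was an A on each of the 8 mRNAs. It lay in the 3′ UTR on 7 of them, and in the coding sequence of SQLE. On FASN it was A at position 8281, with 49 stops and an E of 53.3 in unstressed cells and 8 stops and 30.7 in starved cells. On SCD it was A at position 4123, with 57 stops (E of 19.9) and 19 (E of 8.67), and on FDFT1 A at position 1653, with 43 (E of 29.7) and 31 (E of 16.4). On IDI1 and INSIG1 it rested on 5 and 7 stops.

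Only 5 of the 8 mRNAs had an A or C with at least 30 stops over the in-cell pair, namely SCD with 137, FASN with 21, HMGCS1 and FDFT1 with 5 each and SQLE with 2. The largest fall on HMGCS1 was at A 2734, from 22 stops in unstressed to 9 in starved cells, a 4.75-fold smaller part of the A and C stops of the mRNA (2.10 to 11.7). Against the A and C stops within 50 nt the difference was 4.61-fold (2.04 to 11.4). The largest rise on HMGCS1, at A 2066, was 2.57-fold with an interval that included 1 (0.967 to 8.61), and 1.69-fold against nearby stops (0.634 to 5.64). On SCD the largest rise was at A 5369, 71 nt from the last listed stop, from 8 to 26 stops (4.83-fold, 2.12 to 12.3), and against nearby stops it was 2.04-fold with an interval that included 1 (0.895 to 5.20). The largest fall on SCD, at C 3113, was 6.46-fold (2.59 to 20.8), and 2.41-fold against nearby stops (0.964 to 7.76).

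On FASN the largest rise was at A 8440, 7 nt from the last listed stop (5.47-fold, and 2.25-fold against nearby stops, 1.10 to 4.73), and the largest fall, at A 8282 with 3 stops in starved cells, was 3.17-fold (1.01 to 16.0), and 2.94-fold against nearby stops with an interval that included 1 (0.936 to 14.9). The extremes on SQLE and FDFT1 had intervals that included 1. These nucleotides were picked as the extremes of each mRNA, and their intervals do not allow for that choice.

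Over A and C nucleotides in the last 1000 nt that were listed in both libraries of a pair, log2 stop counts of starved and unstressed cells had a Pearson r of 0.51 on SCD (306 nucleotides), 0.38 on HMGCS1 (190), 0.32 on FDFT1 (168), 0.42 on SREBF2 (34), 0.31 on SQLE (149), 0.26 on FASN (91) and 0.08 on IDI1 (23). For in vitro K+ and Li+ the values were 0.76 on SCD, 0.45 on HMGCS1, 0.59 on FDFT1, 0.44 on SREBF2, 0.45 on SQLE, 0.66 on FASN and 0.13 on IDI1. Between the libraries without DMS they were 0.64 on SCD, 0.30 on HMGCS1, 0.44 on FDFT1 and 0.38 on SREBF2. On SQLE, FASN and IDI1 they were 0.35, 0.61 and -0.30, so such values do not by themselves reflect DMS. INSIG1 had too few such nucleotides in cells. The points share a transcript and differ in depth, so these values are a description.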

How the data were processed

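Duplicate reads were removed by the authors (SAMtools), and unique, mismatch-free Bowtie alignments to hg19 transcripts were kept. The authors deposited counts of RT stops for nucleotides with 3 or more. Beside each count the deposited files give its ratio to a transcript mean, which the values show to be taken over same-base nucleotides. Stops under 3 were rebuilt here as this mean times the number of such bases, with transcripts matched to GENCODE release 44 on GRCh37 (10093 of 11031 with at least 15 listed bases, including all 8). Listed stops summed to 35371061 and 33507714 without DMS (labelled K+ and Na+), 21480565 (K+) and 31174408 (Li+) in vitro, 12999691 in unstressed cells and 24014417 in starved cells.

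Groups followed the labels. Ratios of shares have exact conditional intervals, shares exact Clopper-Pearson intervals and levels exact Poisson intervals. The window of 500 nt and the comparison by GC were chosen after seeing the data. Named were all 8 members, the 3 highest and 3 lowest pathway genes (1 of them is not reported here), the 5 genes nearest in profile, and per mRNA the strongest G and the extreme A or C. GC contents and the summed HMGCS1 stretch were added after values were seen. The members and lists were chosen with earlier results of these data known. The calculation was run on simulated transcripts of known base composition, so a mismatched transcript length was not tested. Scripts ran in Python 3.11.15 with scipy 1.17.1, pandas 2.3.3, numpy 2.4.6 and, for plots, matplotlib 3.10.9.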

Additional observations from a re-analysis of the deposited data

How the results depend on the processing

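The number of the 8 mRNAs at least 1.5-fold higher in starved cells was 2, not 1, with listed stops only, with centring on the median of all transcripts and in the last 250, 500 or 1000 nt, and it was 0 at 2-fold. The number lower, 4, was 3 when centred, at 2-fold and in the last 1000 nt, and 2 in the last 250 nt. SQLE no longer passed in these and in the last 500 nt, and SCD, at -0.41, did not pass in the last 250 nt. With listed stops only, IDI1 was 1.82, INSIG1 1.74, SREBF2 -2.67 and FASN -3.61. The median log2 ratio, -0.59, was -0.49 with stops at U and G only, -0.17 when centred, and -0.10, -0.49 and -0.49 in the last 250, 500 and 1000 nt. FASN, SCD, SREBF2 and SQLE stayed below 0, and IDI1 and HMGCS1 above 0, in every alternative, while INSIG1 ran from -0.05 (U and G only) to 1.98 and FDFT1 was 0.48 in the last 250 nt. The cause was not tested. At an E of at least 5, strong stops at G numbered 71 (labelled K+) and 72 (labelled Na+), and at 20 they numbered 0 and 7. Those 2-fold stronger in K+ numbered 32 at an E of 5, and with the opposite assignment 12, 40 at an E of 5, 7 at 20, 13 with the deposited ratio, and 12 with a mean of 0.25 or a 1.5-fold or 4-fold difference. The fall of the A and C share stayed between -9.3 and -10.6 points. The windows and the added runs of the opposite assignment were chosen after seeing the data. Depth limits INSIG1, IDI1, SREBF2, SQLE and FASN, with under 1 stop per nucleotide in both in-cell libraries. No paired analysis was possible because each condition has 1 library.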
